A study of Homo sapiens with 3 samples.

Results

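Transcripts of 9 genes of the epidermal growth factor receptor (EGFR) family were followed in HCT116 cells: the receptors EGFR, ERBB2 and ERBB3, the ligands AREG, EREG, HBEGF, TGFA and BTC, and the intracellular inhibitor ERRFI1. They were chosen by gene name from the 58302 genes of the deposited table, and each name matched 1 row. HCT116 is an established human colorectal cancer line, and all 3 libraries came from it. The library titled si1 came from cells given siRNA 1 and the library titled si2 from cells given siRNA 2, both meant to lower DUOX2, a peroxide-generating oxidase of epithelia, and the library titled NC came from cells given a control siRNA. Per the series design, cells low in DUOX2 were set against the control group. The labels do not say whether the libraries came from separate cultures. The spread behind the p-values is that between just those 2 siRNA libraries, with each gene's own spread moderated toward the trend over all tested genes. Culture, technical and siRNA differences cannot be told apart in it.

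EGFR, ERBB2 and ERBB3 are transmembrane tyrosine kinase receptors that signal as dimers. AREG, EREG, HBEGF, TGFA and BTC are made as membrane-bound precursors, are released by metalloproteases of the ADAM family and bind EGFR, and EREG, HBEGF and BTC also bind ERBB4. ERBB2 has no known ligand of its own and serves as a partner of the other receptors, while ERBB3 binds neuregulins and has little kinase activity. In the intestinal epithelium this pathway supports proliferation and repair, and EGFR is a drug target in colorectal cancer.

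Library totals were 17589502 counts (control), 19130768 (siRNA 1) and 18832672 (siRNA 2). DUOX2 itself had 2 counts under the control siRNA, 2 under siRNA 1 and 0 under siRNA 2, all below the floor of 3 counts used here, so the target gives no check of the labels and no fold is given. Of 8 colorectal epithelial markers, 7 had counts, with summed levels of 3284 to 5348 CPM (counts scaled to a common library total), and CEACAM5 was at 0 in every library. The library protocol in the labels speaks of retinas. The photoreceptor genes SAG and CRX were at 0 in every library, while 4 retinal markers had counts, with summed levels of 5.12 to 9.10 CPM. Most of these came from RLBP1 (136, 76 and 104 counts in the control, siRNA 1 and siRNA 2 libraries), and NRL had 14, 13 and 11. Their part in the results was not tested. Summed markers of leukocytes, fibroblasts and endothelium were at 0.261 to 3.92 CPM.

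None of the 9 genes passed the test of the siRNA libraries against the control. In edgeR's quasi-likelihood test over 17263 genes, 10 genes (0.0579%) had an adjusted p below 0.05. All 9 genes of the family passed the filter on low counts, and their adjusted p ranged from 0.192 (EREG) to 0.897 (AREG). In the same test 0 of 9 had an unadjusted p below 0.05, against 26.0% of all tested genes. EREG missed that line narrowly, with an unadjusted edgeR p of 0.05001, and ERBB2 had 0.0665. DESeq2 called 0 of the 5 members to which it gave an adjusted p, against 5.54% of the genes it gave one, and 0 of 9 without its independent filtering, against 2.66%. By a rule of size, at least 2-fold from the control in the same direction with both siRNAs, 0 of 9 qualified, against 9.05% of tested genes.

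EGFR had the highest level of the 9 in the deposited FPKM values (counts scaled by gene length and library total), and BTC and EREG the lowest. EGFR stood at 21.6 FPKM (control), 10.7 FPKM (siRNA 1) and 23.7 FPKM (siRNA 2). TGFA followed at 10.1, 10.4 and 12.4 FPKM, and ERRFI1 at 5.15, 4.30 and 6.85 FPKM. In the control library the FPKM of EGFR was above that of 90.9% of tested genes, that of TGFA above 80.1%, that of AREG above 33.1% and that of EREG above 8.5%. The middle of the order held ERBB2, ERBB3 and HBEGF, all between 1.53 and 4.04 FPKM in each library. AREG lay at 0.95 to 1.24 FPKM. EREG and BTC lay between 0.230 and 0.505 FPKM, and their order was BTC above EREG in the control library and EREG above BTC in both siRNA libraries.

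The gene lengths inside the deposited FPKM values matter for this order. For 8 of the 9 genes the length equals the summed length of the distinct GENCODE 29 exons, so bases shared by overlapping exons count more than once, and it exceeds the length of the merged exons 1.11-fold (BTC) to 2.16-fold (ERBB3). ERBB3 was the exception to the equality, with 19516 bases in the FPKM and 19897 in its distinct exons. Counted per kilobase of merged exons and scaled to the library total, ERBB3 was above ERBB2 in all 3 libraries, at 7.65 against 6.87 for the control, while the deposited FPKM has ERBB2 above ERBB3 there (4.04 against 3.54 FPKM). On the merged length TGFA (15.1) also stood above EGFR (14.3) with siRNA 1, whereas EGFR was the higher under the control siRNA (28.9 against 14.7) and under siRNA 2 (31.6 against 18.0). The plot of levels shows both scales.

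**Figure D1:**
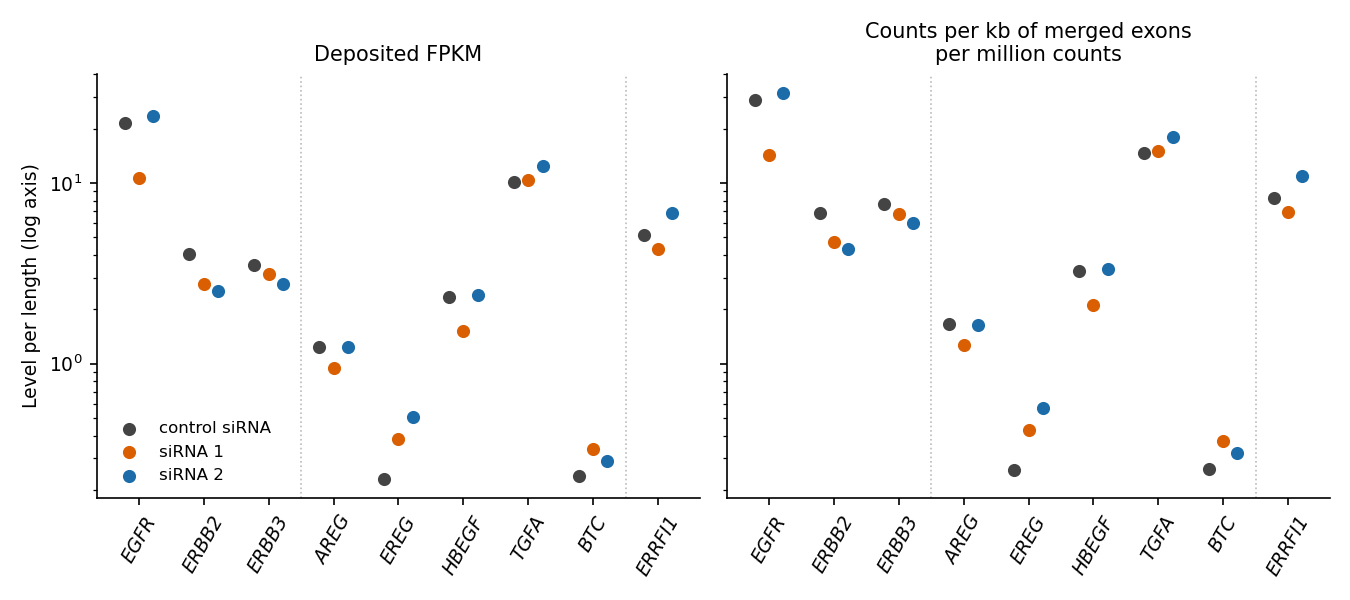
Level of each gene in the control, siRNA 1 and siRNA 2 libraries, 1 point per library, as deposited FPKM (left) and as counts per kilobase of merged exons, scaled to the library total (right), both on a log axis; dotted lines part receptors, ligands and ERRFI1. EGFR is highest in the control and siRNA 2 libraries on both scales, and on the right TGFA stands above EGFR with siRNA 1.

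Among the receptors, EGFR differed most between the 2 siRNA libraries. EGFR (ENSG00000146648, chromosome 7, 55019021 to 55211628, GRCh38) had 6354 counts under the control siRNA, 3431 under siRNA 1 and 7462 under siRNA 2. The siRNA 1 library was low and the siRNA 2 library lay above the control, so the siRNA libraries stood on either side of it. After scaling by edgeR's TMM factors, EGFR was at 0.547 of the control level with siRNA 1 (95% interval for counting error 0.525 to 0.570) and at 1.14 times the control with siRNA 2 (1.11 to 1.18). These intervals leave out variation between cultures, and 68.8% of tested genes with siRNA 1 and 63.5% with siRNA 2 had an interval without 1. The fitted log2 fold change over both libraries was -0.24 ± 0.42 (SE, edgeR adjusted p = 0.730), with a 95% interval from -1.28 to 0.80. EGFR was 2.09-fold higher with siRNA 2 than with siRNA 1. Among all tested genes, 3.30% were at least 2-fold lower with siRNA 1 than with siRNA 2, and 2.84% were as far below as EGFR or further. With 1 library per siRNA this difference has no replicate check. The summed level of the epithelial markers was also lowest with siRNA 1, at 3284 CPM beside 5348 in the control and 4870 with siRNA 2, and its part in the EGFR values was not tested. The keratins KRT8, KRT18 and KRT19 made up most of that sum, and EPCAM, in the same list, was higher in the siRNA libraries, at 435 CPM (control), 637 CPM (siRNA 1) and 633 CPM (siRNA 2). Much of the keratin difference went with the trend on GC content described below. With that trend removed, log2 fold changes with siRNA 1 went from -0.51 to -0.02 for KRT8 and from -0.76 to -0.29 for KRT18. KRT19 went from -1.41 to -0.50, and EPCAM from 0.69 to 0.55.

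ERBB2, the partner receptor that is amplified in some colorectal cancers, had fewer counts in both siRNA libraries, without passing the test. ERBB2 (ENSG00000141736, chromosome 17, 39687914 to 39730426) had 1247 counts under the control siRNA, 933 under siRNA 1 and 838 under siRNA 2. Both siRNA libraries lay below the control, at 0.758 (0.696 to 0.826) and 0.654 (0.599 to 0.715) of its level. The fitted log2 fold change was -0.50 ± 0.22 (SE, edgeR adjusted p = 0.216), with a 95% interval from -1.05 to 0.05. With the trend on GC content removed, ERBB2 stood at 0.20 (siRNA 1) and -0.15 (siRNA 2) on the log2 scale, and with that trend as an offset the fitted value reversed to 0.0308. Of all tested genes, 26.6% had counting intervals below 1 with both siRNAs. The exons of ERBB2 share 7.41% of their bases with genes on the opposite strand, MIEN1 and PGAP3, and whether strand was used in counting is not given in the sources used here.

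ERBB3, the receptor for neuregulins, stayed closer to the control. ERBB3 (ENSG00000065361, chromosome 12, 56079857 to 56103505) had 1216 counts under the control siRNA, 1174 under siRNA 1 and 1019 under siRNA 2, which is 0.978 (0.902 to 1.06) and 0.816 (0.750 to 0.888) of the control level. The siRNA 2 library was low and the siRNA 1 library was within counting error of the control. The fitted log2 fold change was -0.16 ± 0.23 (SE, edgeR adjusted p = 0.678). ERBB4, from the list of other receptors and ligands, had 0 counts in every library. Summed over the 3 measured receptors, EGFR made up 74.0% of receptor FPKM under the control siRNA, 64.4% under siRNA 1 and 81.7% under siRNA 2. Per kilobase of merged exons the shares of EGFR were lower, at 66.5%, 55.4% and 75.4%. In these bulk libraries, fewer cells with a transcript and less of it per cell cannot be told apart.

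The siRNA strands are shown because EGFR, ERRFI1 and HBEGF differed most between the 2 siRNA libraries, and because short matches outside the target can be read directly from the sequences. Capitals mark bases 2 to 8 of each strand, the seed, and the 2-base overhangs are left out. The strands are written 5′ to 3′ from the labels, which give each pair as 1 run, and the second strand of a run, the reverse complement of the first, is called antisense. The sense strands of siRNA 1 and siRNA 2 were found whole in the DUOX2 transcript, at positions 1589 to 1607 and 3031 to 3049 of its 6533 bases, and that of the control siRNA was not.
siRNA 1 antisense: aACCACUAuguuguccucc
siRNA 1 sense: gGAGGACAacauagugguu
siRNA 2 antisense: aUGAAGGAucgcaucaugg
siRNA 2 sense: cCAUGAUGcgauccuucau
control antisense: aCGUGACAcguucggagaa
control sense: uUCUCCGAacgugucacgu

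Matches to the complement of each seed were counted in the longest protein-coding GENCODE 29 transcript of each gene. The complement of the siRNA 1 antisense seed (TAGTGGT) was found in ERBB3 and TGFA, and not in EGFR. It was present in 12.9% of the 13150 such transcripts of tested genes. The complement of the siRNA 1 sense seed (TGTCCTC) was found in EGFR, ERBB2, ERBB3 and HBEGF, against 29.4% of transcripts. The complement of the siRNA 2 antisense seed (TCCTTCA) was found in EGFR, EREG and BTC, against 31.9%, and that of its sense seed (CATCATG) in ERBB3, EREG and BTC, against 28.2%. ERRFI1 and AREG held none of these 4 matches. For the control siRNA, HBEGF held the sense seed's complement (TCGGAGA, 11.6% of transcripts), and 0 of 9 genes held that of the antisense seed (TGTCACG, 7.01%). The 3 matches in EGFR are given with 10 bases on either side, the match in capitals and the position counted from the start of the 9821-base transcript. Other members also had 3′ UTR matches, which are not printed: HBEGF and ERBB2 (siRNA 1 sense), TGFA (siRNA 1 antisense), EREG (siRNA 2 antisense) and BTC (siRNA 2 sense). A match is a description of letters, and any part in the counts was not tested.
EGFR 441 to 447, coding, siRNA 1 sense: tggctggttaTGTCCTCattgccctca
EGFR 9290 to 9296, 3′ UTR, siRNA 1 sense: acctgcagtgTGTCCTCtgaggctgca
EGFR 1315 to 1321, coding, siRNA 2 antisense: taggggtgacTCCTTCAcacatactcc

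TGFA, transforming growth factor alpha, was the main ligand by level. TGFA (ENSG00000163235, chromosome 2, 70447280 to 70554193) had 1282 counts under the control siRNA, 1436 under siRNA 1 and 1682 under siRNA 2. Both siRNA libraries lay above the control, at 1.13-fold (1.05 to 1.22) and 1.28-fold (1.19 to 1.38). Fitted over both libraries, the log2 fold change was 0.27 ± 0.21 (SE, edgeR adjusted p = 0.434). TGFA made up 71.4% of the FPKM summed over the 5 ligands under the control siRNA, 76.5% under siRNA 1 and 73.7% under siRNA 2.

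HBEGF, the heparin-binding ligand, was the second ligand by level. HBEGF (ENSG00000113070, chromosome 5, 140332843 to 140346631) had 173 counts under the control siRNA, 122 under siRNA 1 and 189 under siRNA 2. Its siRNA 1 library was low, at 0.714 of the control (0.562 to 0.906), and its siRNA 2 library was within counting error of the control, at 1.06-fold (0.861 to 1.32). On the log2 scale the fit over both gave -0.17 ± 0.35 (SE, edgeR adjusted p = 0.777). Its share of ligand FPKM was 16.6% under the control siRNA, 11.2% under siRNA 1 and 14.3% under siRNA 2.

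EREG, AREG and BTC lie in that order along chromosome 4, with EREG at 74365143 to 74388751, AREG at 74445134 to 74455009 and BTC at 74744759 to 74794686. EPGN, another ligand gene of the family, was at 0 counts in every library. EREG, epiregulin (ENSG00000124882), had 26 counts under the control siRNA, 47 under siRNA 1 and 61 under siRNA 2. Both siRNA libraries lay above the control, at 1.83-fold (1.11 to 3.08) and 2.28-fold (1.42 to 3.77), and 25.8% of tested genes had counting intervals above 1 with both siRNAs. EREG had the largest fitted difference of the 9 genes, a log2 fold change of 1.04 ± 0.42 (SE, edgeR adjusted p = 0.192). AREG, amphiregulin (ENSG00000109321), had 48 counts under the control siRNA, 40 under siRNA 1 and 51 under siRNA 2. It was within counting error of the control in both, at 0.844 (0.541 to 1.31) and 1.03-fold (0.684 to 1.57), with a fitted log2 fold change of -0.09 ± 0.39 (SE, edgeR adjusted p = 0.897). BTC, betacellulin (ENSG00000174808), had 13, 20 and 17 counts in the control, siRNA 1 and siRNA 2 libraries. Both its values were above the control, at 1.56-fold (0.738 to 3.41) and 1.27-fold (0.583 to 2.85), but within counting error. The fitted log2 fold change of BTC was 0.50 ± 0.54 (SE, edgeR adjusted p = 0.572), with a 95% interval from -0.84 to 1.83. That interval also holds the spread between the 2 siRNA libraries, so its width cannot be laid to low counts alone.

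The neighbours EREG and AREG, which lie in the same orientation, are shown by their promoter windows. The difference between their fold changes was not tested, and their counting intervals overlapped with both siRNAs. Each window spans the RefSeq transcript start and lies mostly before it (GRCh38.p14, plus strand). Capitals mark matches to the cyclic AMP response element TGACGTCA and to TATAAA, searched on both strands.
EREG, chr4:74364895-74365194: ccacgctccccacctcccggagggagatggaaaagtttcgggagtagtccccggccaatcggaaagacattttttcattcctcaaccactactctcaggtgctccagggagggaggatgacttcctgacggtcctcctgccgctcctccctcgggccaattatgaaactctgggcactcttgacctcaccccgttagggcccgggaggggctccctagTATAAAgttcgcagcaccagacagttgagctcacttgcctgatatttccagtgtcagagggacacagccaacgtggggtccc
AREG, chr4:74444886-74445185: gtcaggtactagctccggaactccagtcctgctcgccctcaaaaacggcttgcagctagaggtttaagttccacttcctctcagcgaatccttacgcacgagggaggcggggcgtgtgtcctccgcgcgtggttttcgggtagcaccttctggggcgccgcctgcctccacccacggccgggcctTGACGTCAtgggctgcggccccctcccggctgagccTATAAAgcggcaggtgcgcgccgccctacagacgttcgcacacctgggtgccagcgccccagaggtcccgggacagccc

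AREG held both motifs and EREG held TATAAA alone. Among 35116 promoter windows of this length, 1.85% held TGACGTCA and 11.5% held TATAAA. RefSeq windows were matched for 8 of the 9 genes. In these windows AREG was the member with TGACGTCA, and EGFR, in an internal start, also held TATAAA. The AP-1 motif TGANTCA (7.71% of windows) was found in ERBB2 and in that same internal window of EGFR, and the E-box CACGTG (7.26%) in 0 of the 8 genes. The other EGFR window, at 55018767 to 55019066, held none of these motifs. These motifs do not overlap each other in the printed windows.

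ERRFI1, also called MIG6, binds the kinase domain of the receptors and inhibits it. ERRFI1 (ENSG00000116285, chromosome 1, 8004404 to 8026308) had 610 counts under the control siRNA, 553 under siRNA 1 and 868 under siRNA 2. The siRNA 2 library was high, at 1.39-fold (1.25 to 1.54), and the siRNA 1 library was within counting error of the control, at 0.918 (0.817 to 1.03). The fitted log2 fold change was 0.20 ± 0.31 (SE, edgeR adjusted p = 0.694).

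**Figure D2:**
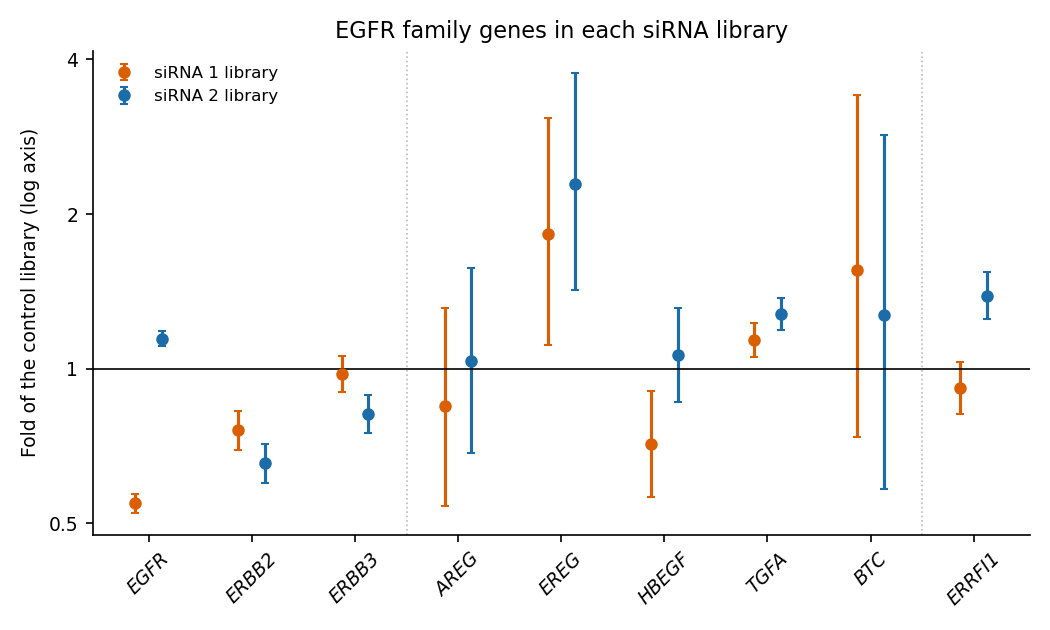
Fold of the control library for each gene with siRNA 1 and siRNA 2 on a log axis, 1 library each, scaled by TMM factors; bars are 95% intervals for counting error only and the line at 1 is the control. EGFR lies at 0.547 with siRNA 1 and 1.14 with siRNA 2, ERBB2 lies below 1 with both, and EREG and TGFA lie above 1 with both.

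The 9 genes did not all move in 1 direction, and neither did the tested genes at large. With siRNA 1 the counting interval lay above 1 for 2 genes (EREG and TGFA, 34.7% of tested genes) and below 1 for 3 (EGFR, ERBB2 and HBEGF, 34.1%). With siRNA 2 it lay above 1 for 4 (EGFR, EREG, TGFA and ERRFI1, 31.5%) and below 1 for 2 (ERBB2 and ERBB3, 32.0%). By sign alone, EREG, TGFA and BTC were higher than the control with both siRNAs (42.0% of tested genes), ERBB2 and ERBB3 were lower with both (41.6%), and EGFR, HBEGF, AREG and ERRFI1 were lower with siRNA 1 and higher with siRNA 2 (7.53%). Signs near 0 carry little: AREG with siRNA 2 (0.05 on the log2 scale) turned to -0.01 under total count scaling. For the latter 4 genes, whose signs place siRNA 1 below siRNA 2, the log2 differences, siRNA 1 minus siRNA 2, were -1.06 for EGFR, -0.59 for ERRFI1, -0.57 for HBEGF and -0.28 for AREG. Of the other members, EREG (-0.31) and TGFA (-0.17) were also lower with siRNA 1, while ERBB2 (0.21), ERBB3 (0.26) and BTC (0.26) were higher. Counting intervals of the ratio of the 2 siRNA libraries lay below 1 for EGFR (0.459 to 0.498), ERRFI1 (0.595 to 0.738) and HBEGF (0.530 to 0.848). They included 1 for AREG (0.526 to 1.26), EREG (0.536 to 1.19) and BTC (0.609 to 2.49). Intervals that also left out 1, by smaller gaps, stood for TGFA (0.827 to 0.954, below 1), ERBB2 (1.05 to 1.27, above 1) and ERBB3 (1.10 to 1.30, above 1). The share of all tested genes whose interval of this ratio leaves out 1 was not counted. The 2 comparisons share the control library. For the 9 genes the median log2 fold change stood at -0.12 (siRNA 1) and 0.19 (siRNA 2), beside 0.02 and -0.01 over all tested genes.

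**Figure D3:**
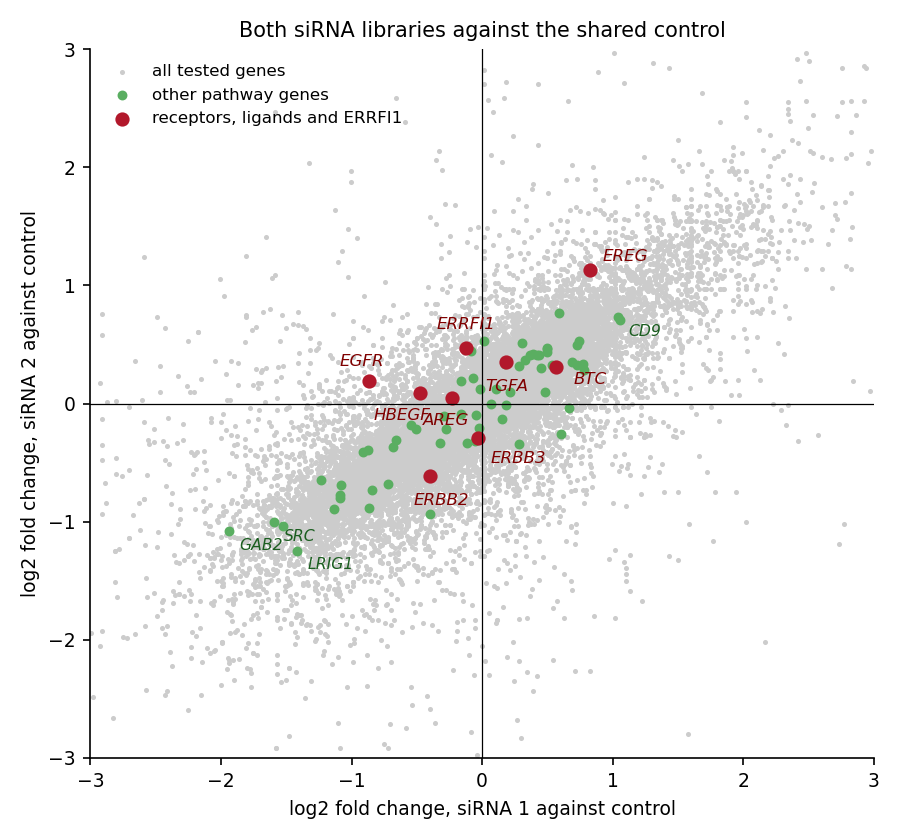
Log2 fold change against the shared control library with siRNA 1 (x axis) and siRNA 2 (y axis) for tested genes (grey), 63 tested genes of the wider pathway (green) and the 9 genes (red); 203 tested genes lie beyond the axes. EGFR, HBEGF, AREG and ERRFI1 are in the upper left, ERBB2 and ERBB3 in the lower left, and EREG, TGFA and BTC in the upper right.

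Fold changes over the whole table moved with the GC content of the transcripts, and the family spans that range. Tested genes under 45% GC had median log2 fold changes of 0.47 with siRNA 1 and 0.36 with siRNA 2, and those of at least 55% GC had -0.78 and -0.59. EREG (36.1% GC), BTC (40.2%) and ERRFI1 (43.4%) were in the first range and ERBB2 (57.5%) in the second. With a lowess trend on GC subtracted, ERBB2 moved from -0.40 to 0.20 with siRNA 1 and from -0.61 to -0.15 with siRNA 2. EREG moved from 0.83 to 0.20 and from 1.13 to 0.65, and BTC from 0.57 to 0.10 and from 0.31 to -0.06. TGFA moved from 0.18 to -0.03 and from 0.35 to 0.18, and ERBB3 from -0.03 to 0.16 and from -0.29 to -0.15. EGFR moved less, from -0.87 to -0.98 and from 0.19 to 0.10. HBEGF went from -0.48 and 0.09 to -0.36 and 0.17, ERRFI1 from -0.12 and 0.47 to -0.46 and 0.21, and AREG from -0.23 and 0.05 to -0.48 and -0.15.

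**Figure D4:**
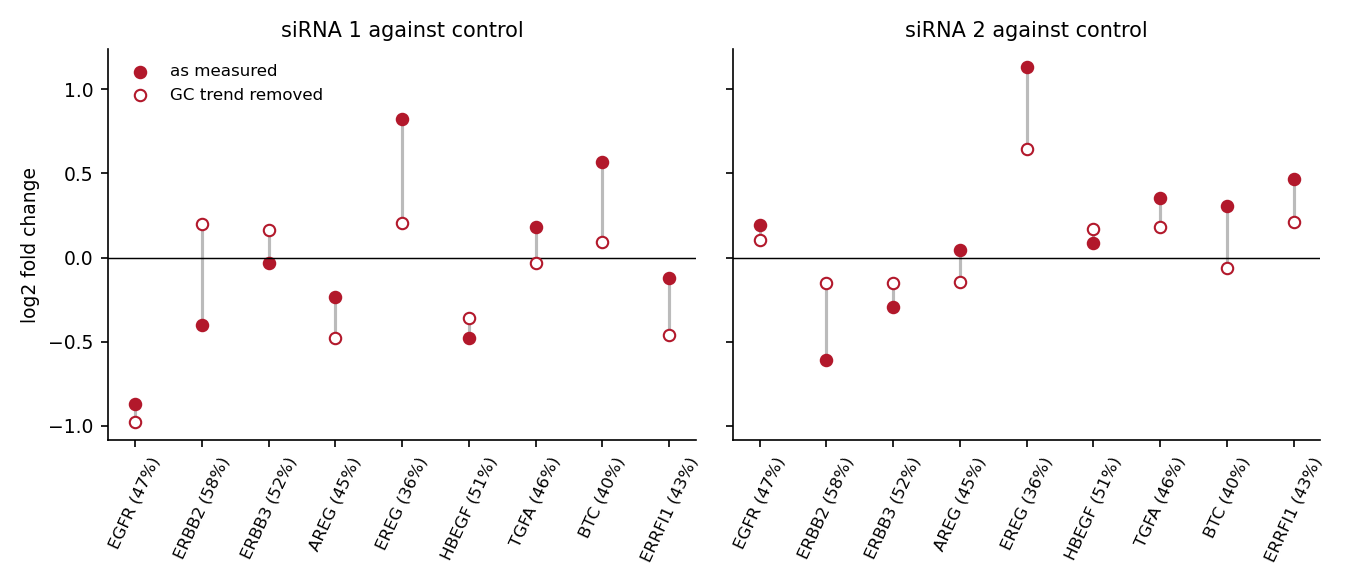
Log2 fold change of each gene with siRNA 1 (left) and siRNA 2 (right), 1 library each, as measured (filled) and with the trend on GC content removed (open); the GC content of the longest transcript stands beside each name. ERBB2 crosses 0 with siRNA 1 and EREG comes closer to 0 with both, while EGFR with siRNA 1 goes from -0.87 to -0.98.

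The wider pathway was described with 75 genes in 5 lists. Of these 63 passed the filter and 0 passed edgeR's test, with 20 at an unadjusted p below 0.05 (8 higher and 12 lower), beside 26.0% of all tested genes. DESeq2 called 3 of the 58 to which it gave an adjusted p, LRIG1 and EPN1 lower and CD9 higher, beside 5.54% of all genes it gave one. Their medians on the log2 scale, 0.02 (siRNA 1) and -0.01 (siRNA 2), were the same at this rounding as those of all tested genes. By the rule of size, 4 of the 63 were at least 2-fold lower with both siRNAs (5.05% of all tested genes), namely LRIG1, GAB2, SRC and SHC3. None of the 63 was 2-fold higher with both, beside 691 of all 17263 tested genes. SHC3 had 30, 9 and 14 counts in the control, siRNA 1 and siRNA 2 libraries, fewer than the 50 of the naming rule.

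Among 7 other receptors and ligands, ERBB4, EPGN and NRG3 were at 0 in every library, and NRG2 and NRG4 passed the filter. NRG2, a neuregulin, had 122 counts under the control siRNA, 65 under siRNA 1 and 67 under siRNA 2 (edgeR adjusted p = 0.166). Its log2 fold changes, -0.87 and -0.88, were 0.05 and -0.18 with the GC trend removed.

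Of 11 genes of ligand shedding 9 were tested, 5 higher and 4 lower with both siRNAs by sign. Over all tested genes those shares were 42.0% and 41.6%. CD9, a tetraspanin that associates with HBEGF precursor, had 12177, 24719 and 20730 counts in the control, siRNA 1 and siRNA 2 libraries, the siRNA libraries both high (log2 fold change 0.89 ± 0.22 SE, edgeR adjusted p = 0.125, DESeq2 adjusted p = 0.0279). NRDC, nardilysin, which enhances ADAM-mediated shedding, had 2777, 3860 and 3953 counts, and 11.0% of its exon bases overlap other genes. RHBDF1 and RHBDF2, inactive rhomboids that carry ADAM17 to the cell surface, had 352, 157 and 194 counts and 688, 288 and 451 counts. With the GC trend removed RHBDF1 had log2 fold changes of -0.15 and -0.15, RHBDF2 -0.24 and 0.10, and CD9 1.19 and 0.84. The sheddases had 1721, 2369 and 1894 counts for ADAM17 and 1605, 1963 and 2358 for ADAM10. With the GC trend removed their log2 fold changes were -0.05 and -0.32 for ADAM17 and -0.23 and 0.09 for ADAM10. Exons of ADAM17 share 13.6% of their bases with other genes. Both were named after their values were seen, outside the naming rule.

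Of 11 receptor inhibitors and phosphatases 10 were tested. LRIG1, a membrane protein that promotes degradation of EGFR family receptors and marks intestinal stem cells, had 1861 counts under the control siRNA, 688 under siRNA 1 and 805 under siRNA 2. Both siRNA libraries were low, at 0.375 and 0.421 of the control. Its log2 fold change was -1.33 ± 0.21 (SE, edgeR adjusted p = 0.105), the smallest adjusted p of the 63 genes, and DESeq2 gave an adjusted p of 0.00160. With the GC trend removed LRIG1 was at -0.99 and -0.92. Its exons share 12.9% of their bases with SLC25A26 on the opposite strand, and how many of its counts come from the shared bases was not measured. SOCS4 (1259, 2006 and 1649 counts) and SOCS5 (1128, 1493 and 1545 counts), which target EGFR for degradation, had the highest lesser fold over both siRNAs in the list, without passing (edgeR adjusted p = 0.219 and 0.249). With the GC trend removed their log2 fold changes were 0.04 and -0.16 for SOCS4 and -0.15 and -0.03 for SOCS5. PTPN1, a phosphatase acting on EGFR, had 4630, 3724 and 4426 counts.

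Of 21 genes of receptor endocytosis and degradation 20 were tested, 8 higher and 7 lower with both siRNAs by sign, beside 42.0% and 41.6% of all tested genes. EPN1, an endocytic adaptor, had 2559, 1189 and 1508 counts (edgeR adjusted p = 0.12, DESeq2 adjusted p = 0.0415), and HGS, which sorts ubiquitinated receptors, had 2337, 1084 and 1404 counts, with 23.5% of its exon bases shared with other genes. With the GC trend removed EPN1 went from -1.09 and -0.80 on the log2 scale to -0.83 and -0.61, and HGS from -1.09 and -0.77 to -0.07 and 0.00. The same step took RAB11A from 1.06 and 0.71 to 0.48 and 0.26, and RAB5A from 0.59 and 0.77 to 0.18 and 0.46. RAB11A, a GTPase of recycling endosomes, had 722, 1486 and 1215 counts, and RAB5A, of early endosomes, had 1472, 2181 and 2574, all higher in the siRNA libraries without passing (edgeR adjusted p = 0.132 and 0.142).

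Of 25 adaptors and proximal effectors 22 were tested, 12 lower (54.5%) and 7 higher (31.8%) with both siRNAs by sign, beside 41.6% and 42.0% of all tested genes. Its median on the log2 scale was -0.10 (siRNA 1) and -0.17 (siRNA 2), and 0.07 and -0.02 with the GC trend removed. GAB2, a docking protein, had 387, 98 and 187 counts (log2 fold change -1.46 ± 0.39 SE, edgeR adjusted p = 0.127), and SRC, the tyrosine kinase, had 610, 198 and 311 (-1.28 ± 0.30 SE, edgeR adjusted p = 0.123). With the GC trend removed GAB2 was at -1.57 and -0.79 and SRC at -0.86 and -0.44. PTPN11, the phosphatase SHP2, had 5598, 7807 and 7936 counts, and NCK1, an SH2 adaptor, had 288, 476 and 429, and their log2 fold changes after removal were 0.10 and 0.16 for PTPN11 and 0.07 and 0.01 for NCK1.

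The protein-coding gene with the pair of fold changes nearest to a member was sought for the 4 members farthest from the control by the smaller of their values. With 3 libraries this likeness rests on 2 fold changes that share a control. For EGFR it was WASF3 (1672, 895 and 1964 counts, distance 0.012), and 7 of 11741 genes compared lay within 0.1. For EREG it was AP4S1 (70, 129 and 156 counts, distance 0.068), with 11 genes within 0.1. For ERBB2 it was TSC22D3 (168, 126 and 112 counts), with 76 within 0.1, and for BTC it was AMMECR1 (1025, 1512 and 1309 counts), with 284 of 11742 genes within 0.1.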

How the data were processed

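The authors deposited raw read counts and FPKM per gene for 3 libraries. Bowtie 0.12.2, GRCh38 and mm8 are named, with no role, per the submitters' processing notes. The table's gene coordinates are those of GRCh38. Which program counted the reads, and whether by strand, is not given in the sources used here. In the deposited file, the authors' FPKM scales each count by a gene length and the column total.

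Counts were tested with edgeR 4.0.16 in R 4.3.3 (TMM, filterByExpr with a minimum count of 10, glmQLFit, glmQLFTest, Benjamini-Hochberg over all 17263 genes tested, threshold 0.05), with siRNA 1 and siRNA 2 as replicates 1 and 2 of the group low in DUOX2 and 1 control, which leaves 1 residual degree of freedom. The procedure was tested on simulated data. Those had 1 common dispersion and no GC trend, so they cannot show how the test behaves under the GC trend of these libraries. The SE is the fold change divided by the square root of F. The 95% intervals of fitted fold changes use the t distribution with the fit's total degrees of freedom, 1 residual and 4.66 prior. The prior ones come from the variance trend over all tested genes. For each siRNA alone, log2 CPM (prior count 2) of the control was subtracted from that of the siRNA library. Intervals of folds and ratios are Clopper-Pearson on the share of the counts of 2 libraries, and cover counting error only. GC content is that of the longest GENCODE 29 transcript, and its trend was taken by lowess with a fraction of 0.3.

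The members and lists were chosen with earlier results of these data known. Named genes are the 9 members, DUOX2, and in each list the 2 highest and 2 lowest by their lesser fold change over both siRNAs (same direction), with at least 50 counts in a library. Alternatives were DESeq2 1.42.0, other scalings, filters and prior counts, limma 3.58.1 on log2(FPKM + 1) and log2(FPKM + 0.1), and removal of the GC trend.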

Additional observations from a re-analysis of the deposited data

How the results depend on the processing

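The count of genes called over the whole table, 10, became 567 with DESeq2 and 459 with DESeq2 without independent filtering, an alternative chosen after seeing the data. It was 0 without a filter on low counts, 0 when 1 CPM was required throughout, 0 with limma on log2(FPKM + 1), 0 with limma on log2(FPKM + 0.1) and 0 with the GC trend as an offset. It was 10 with DESeq2 size factors and 9 with total count scaling. The 9 members had 0 calls under each of these settings, in which DESeq2 gave no adjusted p to AREG, EREG, HBEGF and BTC and BTC failed the filter of 1 CPM. The smallest adjusted p of a member ranged from 0.141 (EREG, 1 CPM required throughout) to 0.730. Of the pathway lists, 3 genes were called with DESeq2 and 2 without its independent filtering. With the GC trend as an offset the fitted log2 fold change reversed for ERBB2 (0.0308), ERBB3 (0.0122) and ERRFI1 (-0.0896).

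With 1 siRNA library left out, which leaves values with no test, the log2 fold change ran from -0.87 to 0.19 for EGFR, from -0.23 to 0.0474 for AREG, from -0.48 to 0.0884 for HBEGF and from -0.12 to 0.47 for ERRFI1. Each of these values is the fold change of the siRNA library that remained, as given above, so they add no separate check. Why the siRNA libraries differed was not tested. Total count scaling moved the median of all tested genes to -0.12 with siRNA 1 and -0.07 with siRNA 2. Of 126 values per siRNA and alternative, 8 changed sign, 5 of them with the GC trend removed. No paired analysis was possible because the control group has a single library. BTC, EREG and AREG had at most 61 counts in a library, which limits their precision.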

Other observations

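The gene lengths behind the deposited FPKM values were checked over 13047 genes with at least 50 counts in the control library. Within a tolerance of 0.001 of the ratio, 92.2% had a length equal to the summed length of their distinct GENCODE 29 exons, and 12.3% had one equal to the merged length. The median ratio of the length used to the merged length was 1.52. Among the 9 genes the ratio was 1.34 for EGFR, 1.70 for ERBB2, 2.16 for ERBB3, 1.34 for AREG, 1.12 for EREG, 1.39 for HBEGF, 1.45 for TGFA, 1.11 for BTC and 1.61 for ERRFI1. A gene with many overlapping exon variants therefore has a lower deposited FPKM than the same count gives per merged kilobase, which bears on comparisons between genes and not on those of 1 gene between libraries.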
